A study of Mus musculus with 6 samples.

Results

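The 9 genes described here encode proteins of MHC class I antigen presentation, and they were chosen by symbol from the 24060 genes of the deposited table: B2m, H2-D1, H2-K1, Tap1, Tap2, Tapbp, Psmb8, Psmb9 and Nlrc5. All 9 were found, each with raw read counts in 6 samples. Retinal ganglion cells (RGCs), the neurons that send the optic nerve to the brain, were purified from C57BL/6 mice at embryonic day 18 (E18, replicates 1, 3 and 4) and postnatal day 5 (P5, replicates 6, 8 and 9), with no transgene or treatment named at either age. Papain-dissociated retinas were depleted of macrophages with antibodies and the RGCs were then caught on antibodies to CD90 (Thy1), so cells of both ages carry that surface protein by selection. The comparison asks which genes of the pathway changed in RGCs between late embryonic and early postnatal life. Nothing states that the replicates came from separate animals, so the p-values measure the spread between these samples, which may be technical. The column taken as E18 replicate 1 also carries the numbers 2 and 5, and whether it pools preparations is not given. No batch or date is named, so age and any batch that followed it cannot be told apart.

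MHC class I molecules show a cell's internal peptides at its surface. The proteasome, or its interferon-inducible form the immunoproteasome, cuts proteins into peptides, the TAP transporter carries these into the endoplasmic reticulum, and tapasin helps load them onto a heavy chain paired with beta-2 microglobulin. NLRC5 is a transactivator that acts at class I gene promoters together with factors bound to a conserved set of upstream elements. In the visual system, class I molecules of RGCs and their targets are known for a role in the refinement of retinogeniculate synapses.

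In the GENCODE annotation of mm10, B2m lies at chr2:122147686-122153083 on the plus strand and Nlrc5 at chr8:94434356-94527272 on the plus strand. The other 7 lie on chromosome 17 in the order Tapbp, H2-K1, Psmb9, Tap1, Psmb8, Tap2 and H2-D1, from Tapbp at chr17:33915899-33929292 (plus) to H2-D1 at chr17:35262730-35267499 (plus). H2-K1 is at chr17:33996017-34000347 on the minus strand. Psmb9 (chr17:34181987-34187764, minus), Tap1 (chr17:34187553-34197225, plus), Psmb8 (chr17:34197721-34201454, plus) and Tap2 (chr17:34203527-34216321, plus) stand side by side.

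Promoter sequences of 7 of the 9 genes were matched in RefSeq (build GRCm38.p6); Tap2 and Nlrc5 were not matched. Those of the class I light chain, of both heavy chains and of Tap1 are shown, since the heavy chain and light chain windows share 3 elements in the same order, an IRF core, CRE-like letters and an inverted CCAAT box, and Tap1 shares its window with Psmb9. Each run is the 250 bases before the RefSeq start site, 5′ to 3′ on the gene's strand, at chr2:122147437-122147686 for B2m (plus), chr17:35262844-35263093 for H2-D1 (plus), chr17:34000348-34000597 for H2-K1 (minus) and chr17:34187306-34187555 for Tap1 (plus). The H2-D1 window lies inside the GENCODE span given above, as do those of Psmb8, Psmb9 and Tapbp in their spans. Positions before the start site therefore depend on the annotation. Capitals mark every match, on either strand, to the 4 motifs named in the next paragraph.
B2m: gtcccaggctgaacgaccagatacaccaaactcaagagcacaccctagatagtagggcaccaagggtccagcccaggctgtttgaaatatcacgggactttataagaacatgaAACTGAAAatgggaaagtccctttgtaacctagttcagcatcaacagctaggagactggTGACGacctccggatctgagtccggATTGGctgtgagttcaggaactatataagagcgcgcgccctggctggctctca
H2-D1: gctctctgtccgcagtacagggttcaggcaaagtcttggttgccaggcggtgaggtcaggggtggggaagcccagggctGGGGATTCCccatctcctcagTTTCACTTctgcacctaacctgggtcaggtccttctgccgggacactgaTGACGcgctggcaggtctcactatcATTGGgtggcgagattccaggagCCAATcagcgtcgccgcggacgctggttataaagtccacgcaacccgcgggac
H2-K1: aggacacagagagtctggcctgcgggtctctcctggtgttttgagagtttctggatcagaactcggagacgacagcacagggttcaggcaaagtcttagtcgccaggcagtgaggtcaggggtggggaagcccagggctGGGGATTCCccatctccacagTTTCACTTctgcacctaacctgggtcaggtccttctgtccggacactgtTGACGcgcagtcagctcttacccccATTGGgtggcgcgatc
Tap1: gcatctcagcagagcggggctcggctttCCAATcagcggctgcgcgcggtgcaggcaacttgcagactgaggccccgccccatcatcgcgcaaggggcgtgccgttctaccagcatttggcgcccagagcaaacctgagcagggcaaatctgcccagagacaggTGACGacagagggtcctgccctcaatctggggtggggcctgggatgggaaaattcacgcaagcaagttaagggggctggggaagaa

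An IRF core, spelled AANNGAAA, was found in B2m, H2-D1 and H2-K1, and in 21.6% of all 27025 promoter windows of the same length. The CRE-like letters TGACG were found in these 3 genes, in Tap1 and in Psmb9, and in 17.8% of all windows. A CCAAT box was found in all matched genes except Psmb8, and in 34.5% of all windows. The kappaB-like pattern GGGNNTTCC was found in H2-D1 and H2-K1, and in 4.85% of all windows. None of the motifs overlapped another in these windows.

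In B2m, H2-D1 and H2-K1 the CRE-like letters were followed, 20 bases on, by an inverted CCAAT box, starting at 78, 101 and 41 bases before the start site respectively. Such a pair, at a gap of 15 to 30 bases, stood in 0.525% of all windows, and at a gap of exactly 20 bases in 0.0925%. The pair was looked for after these sequences had been seen. The H2-D1 and H2-K1 windows were identical at 166 of 190 aligned bases (87.4%). The Tap1 and Psmb9 windows cover 225 bases in common, read on opposite strands, so their matches are the same letters. A match is a description of the sequence and no binding was measured.

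**Figure D1:**
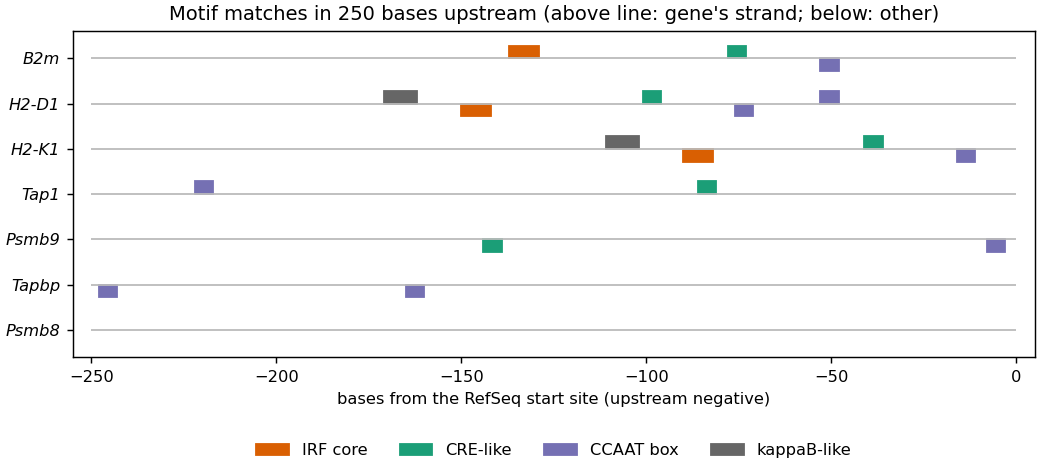
Motif matches in the 250 bases upstream of 7 genes, by distance in bases from the RefSeq start site, with matches on the gene's strand above each line and on the other strand below. B2m, H2-D1 and H2-K1 show an IRF core followed by a CRE-like match and an inverted CCAAT box 20 bases further on, whereas the Psmb8 window holds none of the 4 motifs.

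Between 81213639 and 114512853 reads were counted on genes per sample, and 1 read was worth 0.0089 to 0.0121 CPM (read counts scaled to a common library size, corrected for composition by TMM). Differences were tested with edgeR's quasi-likelihood test on the 16449 genes with enough reads, and a gene was called at a Benjamini-Hochberg adjusted p under 0.05. Of all tested genes 43.4% were called, 20.8% higher at E18 and 22.5% lower. In 28.5% of them every E18 value lay below every P5 value.

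The purified cells carried RGC transcripts at both ages: 15 RGC markers summed to 10609 to 12182 CPM at E18 and 10649 to 11605 at P5. Thy1, the antigen used for purification, was itself lower at E18, with a mean of 247.2 CPM against 552.9 (log2 fold change −1.16, SE 0.19, adjusted p = 0.00197). Transcripts of other cells were uneven at E18. The 9 endothelial and pericyte markers summed to 73.4, 65.2 and 17.3 CPM in E18 replicates 1, 3 and 4, mostly from Kdr alone. At P5 they summed to 15.9 to 19.1 CPM. The 7 amacrine markers summed to 96.1, 198 and 14.6 CPM in the same E18 replicates against 19.2 to 28.7 at P5. The 10 genes of dividing cells summed to 251, 69.3 and 21.8 CPM in these E18 replicates and to 13.9 to 27.6 at P5. In bulk samples, fewer cells of a type and less RNA per cell cannot be told apart.

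Of the 9 genes, 8 had enough reads to be tested. B2m, H2-D1, Tap1, Tap2 and Psmb8 were lower at E18 than at P5, none was higher, and H2-K1, Tapbp and Nlrc5 were not called. Of all tested genes 22.5% were lower at E18. In 7 of the 9, including the untested Psmb9, every E18 value was below every P5 value, as in 28.5% of all tested genes. The differences ranged from 1.37-fold for B2m to 5.35-fold for Tap1, with P5 the higher age. Psmb8 reached the filter of 0.108 CPM in all 3 P5 samples and in no E18 sample, so it entered the test through P5 and had to be lower at E18. Tap2 reached it in 2 E18 samples and in all P5 samples. Counts over the tested genes are therefore a description. E18 replicates 1 and 3 had the highest sums of amacrine and dividing-cell markers and the most Kdr. Kdr is from the endothelial and pericyte list, of which Pecam1, Tek and Rgs5 were instead lower at E18. With E18 replicates 1 and 3 both left out, the log2 fold changes were −0.36 for B2m, −0.67 for H2-D1, −2.18 for Tap1, −1.97 for Tap2 and −2.49 for Psmb8. The remaining E18 sample was then assumed to vary like the others.

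**Figure D2:**
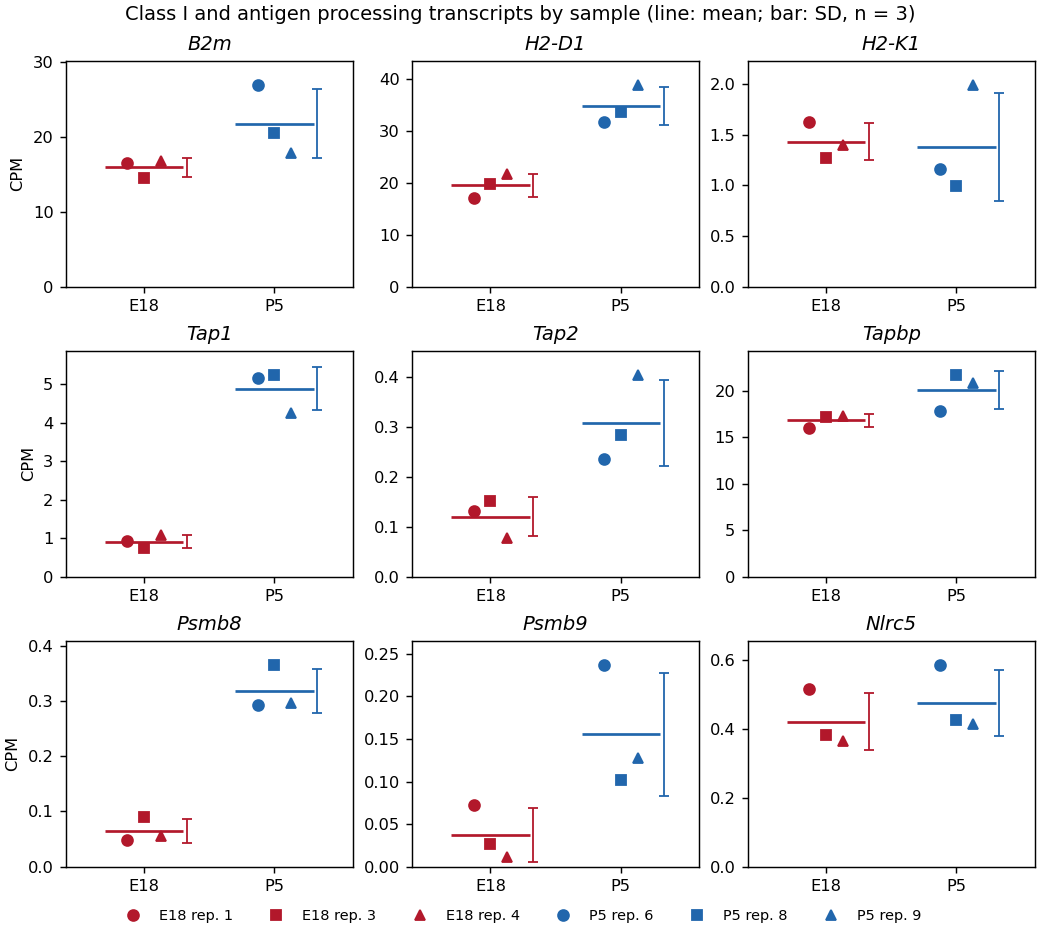
CPM of the 9 genes in each E18 (red) and P5 (blue) sample, with the mean as a line and the SD (n = 3) as a bar, on linear axes that start at 0. E18 and P5 samples overlap for H2-K1 and Nlrc5, and the widest relative gap is that of Tap1, at 0.749 to 1.07 CPM against 4.24 to 5.23.

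The light chain, B2m, which pairs with every classical heavy chain, was at 16.6, 14.5 and 16.8 CPM in E18 replicates 1, 3 and 4 and at 26.9, 20.6 and 17.9 CPM in P5 replicates 6, 8 and 9. All E18 samples were below all P5 samples, but the lowest P5 sample was close to the highest E18 sample. B2m was 1.37-fold lower at E18 (log2 fold change −0.45, SE 0.16, 95% interval −0.81 to −0.09, adjusted p = 0.0472). This call was lost in several fits with 1 sample fewer. The adjusted p was 0.0977, 0.16 and 0.0771 without E18 replicate 1, 3 or 4. The log2 fold changes there were −0.47, −0.38 and −0.49, so the estimate shrank only without replicate 3. Without P5 replicate 6 the adjusted p was 0.126 and the log2 fold change −0.29. B2m also missed the threshold under upper-quartile normalization, at 0.0558.

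H2-D1, one of the classical heavy chains of the C57BL/6 haplotype, was at 17.1, 19.8 and 21.6 CPM at E18 and at 31.7, 33.7 and 38.8 CPM at P5. The ages were clearly apart, with the lowest P5 sample well above the highest E18 sample. H2-D1 was 1.78-fold lower at E18 (log2 fold change −0.83, SE 0.13, adjusted p = 0.0015), and the call held when any single sample was left out. With E18 replicates 1 and 3 both left out, the log2 fold change was −0.67 and the adjusted p 0.0987.

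H2-K1, the other classical heavy chain, was far less abundant per length than H2-D1, at 1.63, 1.27 and 1.4 CPM at E18 and 1.16, 0.995 and 1.99 CPM at P5. The ages overlapped, and P5 replicate 9 alone held the highest value while the other P5 samples held the lowest. The log2 fold change of H2-K1 was 0.05 (SE 0.30, adjusted p = 0.904), with a 95% interval of −0.63 to 0.73 that leaves changes of either sign possible. Without P5 replicate 9 it was 0.41, and without P5 replicate 8 it was −0.16, neither past the threshold. Per unit of exon length, H2-K1 was at 8.33%, 5.6% and 5.69% of H2-D1 in the E18 samples and at 3.21%, 2.59% and 4.5% in the P5 samples. The balance of the heavy chains thus leaned further to H2-D1 in every P5 sample than in any E18 sample.

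Class I heavy chain genes resemble one another, and the way reads with several matches were counted is not given, so their rows may exchange reads. In GENCODE transcripts, 93 of the 2003 windows of 100 bases in H2-D1 (4.64%) also occurred in another gene, most often H2-Q1, and none of the H2-K1 windows did. The table also holds a row for H2-L, a locus that the b haplotype of C57BL/6 is known to lack, with 65 to 173 reads per sample. Reads were counted over RefSeq genes, and the GENCODE annotation held no gene of that name. Sequence shared with the H2-L row was therefore not measured. This row and that of the pseudogene H2-K2 were picked after their values were seen. H2-L was at 1.11 CPM on average at E18 and 1.78 at P5 (log2 fold change −0.67, adjusted p = 0.0701). H2-K2 was higher at E18, with 0.869 CPM against 0.482 (log2 fold change 0.85, adjusted p = 0.0397). When the H2-D, H2-K, H2-L and H2-Q rows were summed, a step chosen after the data were seen, the sum was 22.6, 25.1 and 28.1 CPM at E18 and 37.9, 39.5 and 45.5 at P5 (log2 fold change −0.70, SE 0.12, adjusted p = 0.00246). H2-D1 made up 75.9% to 85.3% of that sum in each sample.

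Of 22 other class I heavy chain genes, 6 had no read in any sample and 10 were tested. Of these 10, 2 were higher and 2 lower at E18, with a median log2 fold change of −0.20. Among all tested genes 20.8% were higher and 22.5% lower. H2-Q2 was lower at E18, at 0.653 CPM on average against 1.49 (log2 fold change −1.19, adjusted p = 0.00523). H2-T22, a non-classical heavy chain, was lower at 0.429 against 0.745 CPM (log2 fold change −0.80, adjusted p = 0.0445). H2-M5 went the other way, at 7, 7.19 and 7.01 CPM at E18 and 3.53, 4.41 and 2.69 CPM at P5 (log2 fold change 1.00, adjusted p = 0.00502), and H2-Q5 was likewise higher at E18 (log2 fold change 2.01, adjusted p = 0.00643), from a mean of only 0.275 CPM. Over all 32 class I heavy chain rows summed, H2-D1 included, the sum was lower at E18 by a log2 fold change of −0.37 (SE 0.10, adjusted p = 0.0151). H2-D1 made up 46.8% to 70.7% of that sum in each sample. The 22 other genes by themselves went the other way, summing to 15.6 to 15.8 CPM at E18 and 11.3 to 12.7 at P5. Of 5 class I-like partners of beta-2 microglobulin, Cd1d1 alone was tested, and it was not called (log2 fold change 0.38).

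Tap1, a subunit of the peptide transporter, had the largest fitted difference of the 8 tested genes, but not in every alternative fit. With E18 replicate 3 left out that of Psmb8 was larger (log2 fold change −2.59 against −2.29). The same held with E18 replicates 1 and 3 both left out (−2.49 against −2.18). Psmb9, untested with all samples in, had −2.90 without E18 replicate 1, against −2.42 for Tap1. With E18 replicates 1 and 3 both left out it had −3.64, the largest of the 9 genes. Tap1 counts were 76, 84 and 97 reads at E18 and 458, 515 and 399 at P5, or 0.916, 0.749 and 1.07 CPM against 5.17, 5.23 and 4.24 CPM. Every P5 sample was several times higher than any E18 sample. Tap1 was 5.35-fold lower at E18 (log2 fold change −2.42, SE 0.22, adjusted p = 0.000228), and 1.81% of the tested genes had a lower log2 fold change. Its fold change stayed between −2.55 and −2.18 on the log2 scale under every alternative fit that gave a value, all past the threshold. In GENCODE, Tap1 exons overlap those of Psmb9 on the opposite strand over 212 bases (3.9% of the exons of Tap1). With the RefSeq start sites of the promoter windows, these genes do not overlap there. Reads were counted over RefSeq genes, and whether counting used strand is not given.

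Tap2, the partner subunit without which TAP1 forms no working transporter, was at 11, 17 and 7 reads at E18 and 21, 28 and 38 at P5, or 0.133, 0.152 and 0.0773 CPM against 0.237, 0.284 and 0.404 CPM. The ages did not overlap, at a low level. Tap2 was 2.53-fold lower at E18 (log2 fold change −1.34, SE 0.40, adjusted p = 0.027), but the adjusted p was 0.0687, 0.0597 and 0.0944 without E18 replicate 1, 3 or 4, 0.098 without P5 replicate 9, and 0.0601 with DESeq2. An annotated gene on the opposite strand, Gm15821, overlaps 14.1% of its exons.

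Tapbp, which encodes tapasin, was at 16, 17.2 and 17.3 CPM at E18 and 17.8, 21.7 and 20.9 CPM at P5. Every E18 sample was below every P5 sample, by little. Tapbp was not called (log2 fold change −0.26, SE 0.12, 95% interval −0.52 to 0.01, adjusted p = 0.103). Without P5 replicate 6, its lowest P5 sample, it was called (log2 fold change −0.35, adjusted p = 0.0419). Gm19412, annotated on the opposite strand, overlaps 24.9% of its exons.

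Around these members, 12 further genes of peptide loading and trimming were all tested, and 3 were higher and 4 lower at E18. Among all tested genes 20.8% were higher and 22.5% lower. The median log2 fold change of the 12 was −0.17. Erap1, the aminopeptidase that trims peptides in the endoplasmic reticulum, had the largest difference, at 4.56, 3.98 and 4.15 CPM at E18 against 17.2, 12.1 and 21.3 CPM at P5 (log2 fold change −2.00, SE 0.21, adjusted p = 0.000352). No E18 sample came near a P5 sample. Abcb9, a lysosomal relative of the TAP subunits, was at 13.9 CPM on average at E18 and 27.7 at P5 (adjusted p = 0.00311), and Sppl2a, an intramembrane protease, was lower by a log2 fold change of −0.51 (adjusted p = 0.00709).

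Calnexin (Canx), a chaperone of the heavy chain, was also lower at E18, at 700.7 CPM on average against 920.7 (log2 fold change −0.39, adjusted p = 0.00862). The genes higher at E18 were general chaperones and glycoprotein-folding enzymes: Hspa5 (BiP) with a log2 fold change of 0.56 (adjusted p = 0.0136), Uggt1 with 0.33 (adjusted p = 0.0298) and Ganab with 0.27 (adjusted p = 0.027). With E18 replicates 1 and 3 left out, 1 of the 12 was called.

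Psmb8, the immunoproteasome subunit that takes the place of Psmb5, was at 4, 10 and 5 reads at E18 and 26, 36 and 28 at P5, or 0.0482, 0.0892 and 0.0552 CPM against 0.293, 0.366 and 0.298 CPM. The groups were well apart although few reads lay behind them, and Gm20496, annotated on the opposite strand, overlaps 14.7% of its exons. Psmb8 was 4.79-fold lower at E18 (log2 fold change −2.26, SE 0.40, adjusted p = 0.00273). Since it passed the filter through the P5 samples alone, that test describes a gene that had to be lower at E18, by a size the filter did not set. In a fit with no filter its log2 fold change was −2.26 (adjusted p = 0.0024). With E18 replicates 1 and 3 both left out the adjusted p was 0.0977.

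Psmb9, which replaces Psmb6, had 6, 3 and 1 reads at E18 and 21, 10 and 12 at P5, or 0.0723, 0.0268 and 0.011 CPM against 0.237, 0.102 and 0.128 CPM. All E18 samples were below all P5 samples, but the gene did not pass the filter on low counts and was not tested. In a fit with no filter its log2 fold change was −2.07 (adjusted p = 0.0376). It also passed the filter in some fits with a sample left out, where its adjusted p was 0.0246 without E18 replicate 1, 0.0308 without P5 replicate 8, 0.121 without E18 replicate 3 and 0.0955 without E18 replicate 4. With DESeq2 the adjusted p was 0.072.

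The standard subunits were abundant, and neither of those that Psmb8 and Psmb9 replace was called. Psmb5 was at 49.3, 53.7 and 51 CPM at E18 and 51.5, 49.1 and 60.1 CPM at P5 (log2 fold change −0.06, SE 0.10, adjusted p = 0.66), and Psmb6 at 127.2, 137.1 and 132 against 137.3, 138.1 and 150.6 CPM (log2 fold change −0.10, SE 0.08, adjusted p = 0.342). Per unit of exon length, Psmb8 stood at 0.026%, 0.0442% and 0.0288% of Psmb5 at E18 and at 0.152%, 0.198% and 0.132% at P5. Psmb9 stood at 0.0291%, 0.00998% and 0.00428% of Psmb6 at E18 and at 0.0882%, 0.0376% and 0.0433% at P5. Both immunoproteasome transcripts were thus a minute share of their standard counterparts at either age, and the share was higher in every P5 sample.

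Psmb10, which replaces Psmb7, was of another order, at 8.52, 9.14 and 9.95 CPM at E18 and 14.4, 12.8 and 17.6 CPM at P5 (log2 fold change −0.70, SE 0.15, adjusted p = 0.00628). Per length it stood at 13.3%, 13.7% and 15.4% of Psmb7 at E18 and at 17.6% to 21.6% at P5, a ratio added after its values were seen. Of 8 genes, made up of the standard subunits, Psmb10, the PA28 genes and the assembly factor Pomp, 3 were lower and none higher at E18, the others being Psmb7 (log2 fold change −0.26, adjusted p = 0.0351) and the proteasome activator Psme1 (log2 fold change −0.29, adjusted p = 0.0465). Of all tested genes 22.5% were lower at E18. Omitting a sample left 1 of the 8 called in each case except for P5 replicate 8, where 3 were.

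**Figure D3:**
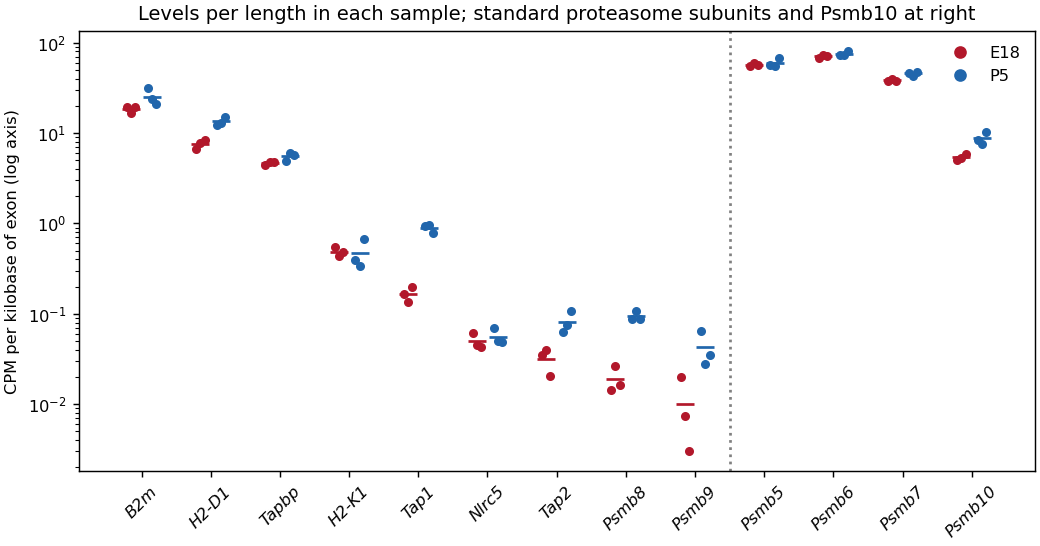
CPM per kilobase of exon in each E18 (red) and P5 (blue) sample on a log axis, with means as lines. The 9 genes span from 18.6 (B2m) to 0.01 (Psmb9) at E18, and the proteasome subunits Psmb5, Psmb6 and Psmb7, to the right of the dotted line, lie above all of them at both ages.

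Set side by side as CPM per kilobase of exon, the levels at E18 ran in the order B2m (18.6 on average), H2-D1 (7.58), Tapbp (4.65), H2-K1 (0.488), Tap1 (0.167), Nlrc5 (0.0497), Tap2 (0.0319), Psmb8 (0.019) and Psmb9 (0.01). Tap2 and Psmb8, and Psmb8 and Psmb9, overlapped between samples, and the other neighbours did not. At P5 the order was B2m (25.4), H2-D1 (13.5), Tapbp (5.55), Tap1 (0.891), H2-K1 (0.47), Psmb8 (0.0943), Tap2 (0.0816), Nlrc5 (0.056) and Psmb9 (0.0424). Tap1 had moved ahead of H2-K1, and the last 4 genes each overlapped their neighbour. The order within each age was the same when the longest transcript was taken as the length.

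Nlrc5, the class I transactivator, was at 0.518, 0.384 and 0.364 CPM at E18 and 0.587, 0.427 and 0.415 CPM at P5. The ages overlapped, since E18 replicate 1 lay within the P5 range, while the other E18 samples lay just below it. Its log2 fold change was −0.17 (SE 0.30, 95% interval −0.87 to 0.52, adjusted p = 0.669). Across the samples, P5 replicate 6 and E18 replicate 1 were the highest of their age.

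Of 17 other regulators of class I transcription, all tested, 4 were higher at E18 and none lower, with a median log2 fold change of 0.12. That count is near the 20.8% of all tested genes that were higher at E18. Irf1, an interferon regulatory factor known to bind class I promoters, was at 20.5, 14.4 and 13.1 CPM at E18 and at 1.8, 1.73 and 0.478 CPM at P5. The embryonic level was far above the postnatal one in every sample (log2 fold change 3.58, SE 0.44, adjusted p = 0.000642). Stat2 (log2 fold change 0.66, adjusted p = 0.00691) and Nfya, a subunit of the factor that binds CCAAT boxes (0.62, adjusted p = 0.00545), were also higher at E18.

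**Figure D4:**
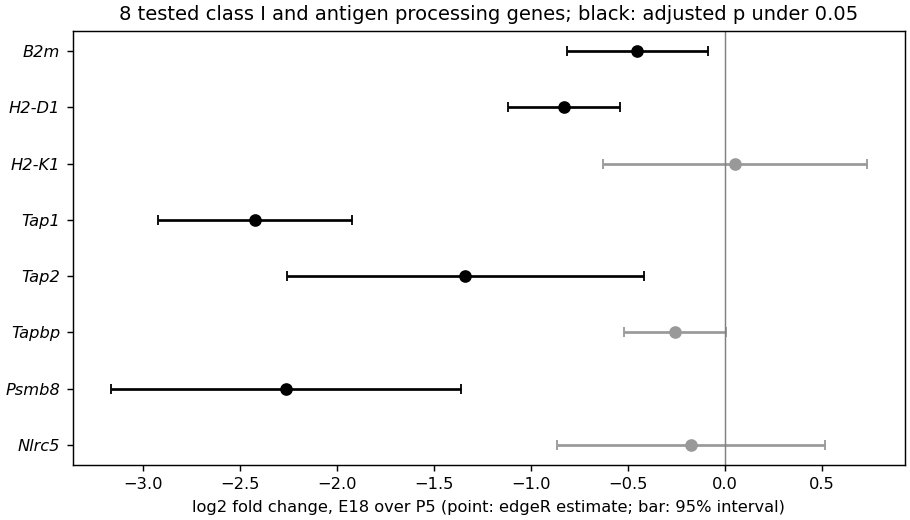
Fitted log2 fold changes, E18 over P5, of the 8 tested genes with 95% intervals, black where the adjusted p was under 0.05. The intervals of Tap1 and Psmb8 lie farthest below 0, and those of H2-K1, Tapbp and Nlrc5 include 0.

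Of 13 interferon receptor and signalling genes, 10 were tested, and 2 were higher and 3 lower at E18, against 20.8% and 22.5% of all tested genes. The kinase Jak1 (log2 fold change −0.61, adjusted p = 0.000992) and the interferon-gamma receptor chains Ifngr1 (−0.32, adjusted p = 0.0282) and Ifngr2 (−0.29, adjusted p = 0.023) were lower at E18. Socs3, a feedback inhibitor of cytokine signalling, was at 29.8, 26.3 and 32.5 CPM at E18 and 4.35, 6.1 and 1.67 CPM at P5 (log2 fold change 2.87, adjusted p = 0.000903), and Tyk2 was also higher at E18 (0.50, adjusted p = 0.00535). The interferon genes themselves were hardly detected: Ifng had 0.0113 to 0.0744 CPM at P5 and no read in any E18 sample, which allows up to 0.0268 to 0.0362 CPM there (3 reads, counting error only). The count called was 3 without E18 replicate 1 or 3 or P5 replicate 9, against 5.

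Of 26 interferon-induced genes, 15 were tested, and 5 were lower and none higher at E18. Of all tested genes 22.5% were lower. The median log2 fold change of the 15 was −0.75, against 0.0047 for all tested genes. The 26 genes were scarce at both ages, summing to 15 to 17.1 CPM at E18 and 19.9 to 30.7 CPM at P5. Irgm1, an immunity-related GTPase, was at 0.338, 0.196 and 0.0884 CPM at E18 and 0.756, 0.681 and 1.37 CPM at P5 (log2 fold change −2.18, adjusted p = 0.00785). Ifih1, an RNA sensor, had a log2 fold change of −1.48 (adjusted p = 0.0324) and the guanylate-binding protein gene Gbp7 one of −1.41 (adjusted p = 0.0179). The count called depended on single samples, being 2 without E18 replicate 3 or P5 replicate 6, 3 without P5 replicate 9 and 9 without P5 replicate 8.

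**Figure D5:**
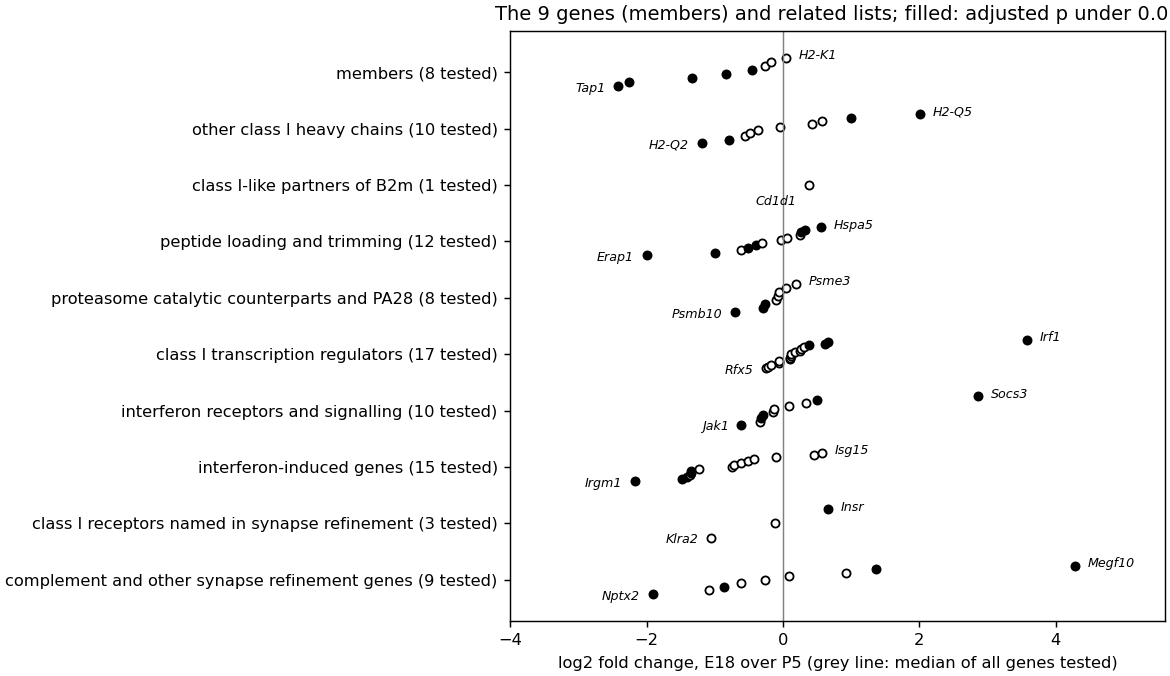
Log2 fold changes, E18 over P5, of the tested genes in each list, filled where the adjusted p was under 0.05, with the lowest and highest gene of each list named and the median of all tested genes as a grey line. All called interferon-induced genes lie to the left, as do the called members, whereas Irf1 (3.58) and Socs3 (2.87) lie far to the right.

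A list of 9 genes held receptors of class I proteins named in synapse refinement, with the insulin receptor gene Insr added to them. Of the 9, 8 were in the table and 3 had enough reads for a test. Pirb, the paired immunoglobulin-like receptor B, was at 0.0241, 0.187 and 0.0994 CPM at E18 and 0.0677, 0.152 and 0.128 at P5 and was not called (log2 fold change −0.12, SE 0.64, adjusted p = 0.897). The insulin receptor Insr was higher at E18, with 161 CPM on average against 102 (log2 fold change 0.66, adjusted p = 0.0027). The T cell receptor chain genes Cd247 and Cd3e had at most 0.121 CPM in any sample.

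Of 11 complement and other synapse refinement genes, 9 were tested, and 2 were higher and 2 lower at E18. The shares of all tested genes were 20.8% higher and 22.5% lower. The neuronal pentraxins Nptx2 (27.7 against 104.2 CPM, log2 fold change −1.91, adjusted p = 0.000228) and Nptx1 (77 against 140.2 CPM, −0.86, adjusted p = 0.00363) were lower at E18. The phagocytic receptor gene Megf10 was called higher at E18 (log2 fold change 4.29, adjusted p = 0.00819), but its E18 values of 163, 377 and 11.2 CPM followed the uneven amacrine markers, and the lowest lay within the P5 range of 7.53 to 11.4 CPM. The integrin gene Itgam, a marker of microglia, was higher at E18, at 0.326 against 0.127 CPM (log2 fold change 1.36, adjusted p = 0.0293).

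Class I genes are strongly expressed by immune and endothelial cells, so transcripts of such cells were measured beside them. The 13 microglia and macrophage markers summed to 4.99 to 5.48 CPM at E18 and to 3.78 to 3.96 at P5, and Tmem119 had no read in any P5 sample. The 8 lymphocyte markers summed to 0.442 to 0.567 CPM at E18 and 0.575 to 0.808 at P5, with at most 1 read of Cd3d or Cd3g in any sample. The 5 markers of class II antigen-presenting cells summed to 8.03 to 10.4 CPM at E18 and 7.02 to 11.9 at P5. Of the 5, 4 were tested and none was called. In 1 of them every E18 value lay below every P5 value, and in 1 above. H2-Aa, a small part of these sums, had 0.014 CPM on average at E18 and 0.128 at P5.

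Endothelial and pericyte markers split: Kdr, which drove the E18 sum, was at 69.5, 62.9 and 14.1 CPM at E18 against 4.79 to 11.3 at P5. Pecam1 was lower at E18 (0.686 against 2.41 CPM, log2 fold change −1.81, adjusted p = 0.00123), as were Tek (0.83 against 2.88 CPM, −1.80, adjusted p = 0.00239) and the pericyte marker Rgs5 (0.112 against 2.33 CPM, −4.36, adjusted p = 0.000166), while Cdh5 had at most 0.0609 CPM in any sample. Of the 9, 8 were tested, 3 being lower and 1 higher at E18, where 22.5% of all tested genes were lower and 20.8% higher. Pecam1, Tek and Rgs5 moved in the same direction as the called members. Their part in the class I differences was not tested.

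The genes whose pattern over the 6 samples was most like that of B2m, by the root mean square difference of centred log2 CPM among 9724 genes compared, were Cdo1 (0.0734), Dzip1 (0.0813), Ankrd45 (0.0829), Zfp942 (0.0962) and Fam196b (0.111). Of the other members the nearest to B2m by that measure were Nlrc5 (0.205) and Tapbp (0.282), and the farthest was Tap1 (1.00). These likenesses over 6 samples of 2 ages are descriptions.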

How the data were processed

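RNA-seq was analysed for 6 samples of immunopanned RGCs, 3 per age, grouped by their titles. The authors depleted ribosomal RNA with RiboZero Gold (the labels name polyA RNA), aligned reads to mm10 with STAR and counted them over RefSeq genes (HT-seq). The values used are the raw read counts they deposited. The submitters' processing notes also name CASAVA 1.8.2 and edgeR. The strand setting and the treatment of reads with several matches are not given in the sources used here. Another 9 columns of per-sample values (normalized counts and ratios to P5) were not used, nor were the authors' fold changes, p-values, false discovery rates and ranks.

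Library sizes were scaled by TMM and the counts tested in edgeR 4.0.16, R 4.3.3 (quasi-likelihood test, age as the only term, filterByExpr with a minimum count of 10, Benjamini-Hochberg threshold 0.05), a procedure first tested on simulated data. Of the 24060 genes, 2411 had no read. Adjusted p-values cover all tested genes, and SEs belong to the fitted model. Totals per sample ran from 81213639 to 114512853. Samples of 1 age differed by 30.5 to 141 chi-square units per degree of freedom, so none was a copy of another and replicate spread sets the precision. Exon lengths are GENCODE unions, and all exon overlaps are those of GENCODE, not of the RefSeq genes that were counted. Likeness was measured over genes averaging 10 CPM or more, with a pseudocount of 0.01.

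Alternatives were DESeq2 1.42.0, edgeR's exact test, upper-quartile normalization, other filters, summed heavy chain rows, longest-transcript lengths and omission of each sample; the sum of the H2-D, H2-K, H2-L and H2-Q rows and the joint omission of E18 replicates 1 and 3 were added after the data were seen. Named genes are the 9 members, in each list up to 3 called genes per direction with the largest log2 fold change, Psmb5 and Psmb6, and the 5 genes most like B2m. Others named (H2-L, H2-K2, Canx, Psmb10 with Psmb7 as a ratio, Thy1, Pirb, Ifng, Cd1d1, Cd247, Cd3e and single cell-type markers) were picked after their values were seen. The values of some single genes of the lists are left out. The members and lists were chosen with earlier results of these data known.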

Additional observations from a re-analysis of the deposited data

How the results depend on the processing

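Of the 9 genes 5 were called, where 43.4% of all tested genes were. Under a filter of 1 CPM in 3 samples, 5 of the 9 were tested and 3 called. With each sample left out in turn, 3 to 6 were called, the fewest without E18 replicate 3 or 4 and the most without P5 replicate 8, and 4575 (without E18 replicate 3) to 8796 (without P5 replicate 8) of all genes, against 7135. With E18 replicates 1 and 3 both left out, 1 of the 9 genes (Tap1) and 1633 of all genes were called, from fewer samples. H2-K1, never called as its own row, turned sign: it ran from −0.16 to 0.41 on the log2 scale with single samples left out, and the sums that replace it gave −0.37 (all class I heavy chains) and −0.70 (H2-D, H2-K, H2-L and H2-Q rows). H2-D1 was called in every alternative that gave its own row a value, except the joint omission, and Tap1 in all of them. No other of the 9 genes changed sign. No paired analysis was possible because no replicate number is shared between the ages.

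Depth limits Psmb8 and Psmb9, which had at most 10 reads in any E18 sample. The ratios of immunoproteasome to standard subunits depend on the length taken for each gene, but the direction between ages does not. The count of all genes called moved with single samples, and the cause was not tested.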

Other observations

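Beside the class I genes, H2-DMb1 and H2-DMb2, subunits of the class II peptide-loading chaperone picked after their values were seen, were higher at P5. None of the 4 tested genes of the class II marker list was called by edgeR's quasi-likelihood test, 1 (H2-Ab1) had an unadjusted p under 0.05, and 2 of the list were called by DESeq2 and 1 by edgeR's exact test. H2-DMb2 had 3, 3 and 1 reads at E18 and 52, 55 and 38 at P5 (log2 fold change −4.32, SE 0.46, adjusted p = 0.000371 by edgeR). H2-DMb1 had 3, 6 and 4 reads at E18 and 19, 34 and 39 at P5 (log2 fold change −2.81, SE 0.45, adjusted p = 0.00178). No E18 sample overlapped a P5 sample for either gene, and every E18 value lay below every P5 value in 28.5% of all tested genes. Both entered the test through the P5 samples and had to be lower at E18, by a size the filter did not set.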
